A study of Mus musculus with 2 samples.

Results

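The genes described here are 10 members of the major histocompatibility complex (MHC) class I pathway: the light chain B2m, the heavy chains H2-K1, H2-D1 and H2-T23, the peptide transporter subunits Tap1 and Tap2, tapasin (Tapbp), the immunoproteasome subunits Psmb8 and Psmb9, and the transactivator Nlrc5. They were listed by symbol, and all 10 were found among the 31053 features of the gene table. The listing rule uses no measured value, but the members were chosen with earlier results of these data known. They were measured in sorted mouse microglia, the macrophages of the brain tissue, by droplet single-cell RNA sequencing, in 3304 cells of a wild-type (WT) library and 5007 cells of a library labelled IRF8KO. The comparison addresses how adult microglia change when the transcription factor IRF8 is missing.

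Both groups were untreated female C57BL/6 mice, 3 months old. For each genotype, cells isolated without enzymes were pooled from 3 animals, sorted by flow cytometry and loaded as 1 library, so the design has 1 library per group. No difference here has a replicate check and no test between genotypes exists. The sample titles give the 2 groups, but the genotype field of the IRF8KO sample also says WT. It is therefore named the library labelled IRF8KO, or IRF8KO for short. The labels do not name the Irf8 allele. They also name a full-length RNA kit that is not a droplet method, while the values have the form of droplet counts.

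Class I molecules sit on the surface of almost all nucleated cells and show short peptides from inside the cell to CD8 T cells and natural killer cells. Proteasomes cut proteins into peptides, and their immunosubunits, which interferons induce, replace constitutive subunits and alter the cutting. The TAP transporter carries peptides into the endoplasmic reticulum, where tapasin and chaperones help load them onto a heavy chain paired with B2m. Transcription of these genes is known to depend on an upstream NF-κB site, an interferon-stimulated response element (ISRE) and an SXY module that is bound by RFX, CREB and NF-Y factors and by Nlrc5. In the healthy brain, microglia are among the cells in which class I transcripts are readily found, and interferons raise them.

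Except for B2m on chromosome 2 (122147686-122153083, plus strand) and Nlrc5 on chromosome 8 (94434356-94527272, plus strand), the members lie on chromosome 17 of GRCm38. There, GENCODE M21 places Tapbp at 33915899-33929292 and H2-K1 at 33996017-34000347. Psmb9 (34181987-34187764), Tap1 (34187553-34197225), Psmb8 (34197721-34201454) and Tap2 (34203527-34216321) follow as neighbours. H2-D1 is at 35262730-35267499 and H2-T23 at 36029773-36032855. H2-K1, Psmb9 and H2-T23 are on the minus strand and the rest on the plus strand.

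The promoters are shown because the members split by role in the data below, and the motifs known for class I promoters were searched in them. RefSeq promoter windows of GRCm38.p6, of 300 bases from 250 before to 50 after the start site, were found for 8 of 10 members, not for Tap2 and Nlrc5. The motifs, searched on both strands, were an ISRE core (GAAA, any 2 bases, GAAA), a κB motif (GGGGA, any base, TCCC), the X2 box (TGACGC) and CCAAT. The 250 bases before the start site are given 5′ to 3′ on the strand of the gene, with matches to any of the 4 motifs in capitals. The windows are chr2:122147437-122147686 (+) for B2m, chr17:34000334-34000583 (-) for the second start site of H2-K1, chr17:35262844-35263093 (+) for H2-D1, chr17:36032702-36032951 (-) for H2-T23 and chr17:34187306-34187555 (+) for Tap1.
B2m: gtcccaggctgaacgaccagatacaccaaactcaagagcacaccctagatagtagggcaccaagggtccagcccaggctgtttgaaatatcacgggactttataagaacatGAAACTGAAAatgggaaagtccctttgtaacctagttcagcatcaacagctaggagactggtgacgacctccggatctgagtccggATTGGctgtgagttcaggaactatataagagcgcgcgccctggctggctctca
H2-K1: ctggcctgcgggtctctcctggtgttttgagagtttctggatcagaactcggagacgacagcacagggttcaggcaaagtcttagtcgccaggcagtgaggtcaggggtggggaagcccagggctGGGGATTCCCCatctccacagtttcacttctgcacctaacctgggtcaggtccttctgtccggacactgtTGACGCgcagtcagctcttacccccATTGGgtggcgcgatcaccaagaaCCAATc
H2-D1: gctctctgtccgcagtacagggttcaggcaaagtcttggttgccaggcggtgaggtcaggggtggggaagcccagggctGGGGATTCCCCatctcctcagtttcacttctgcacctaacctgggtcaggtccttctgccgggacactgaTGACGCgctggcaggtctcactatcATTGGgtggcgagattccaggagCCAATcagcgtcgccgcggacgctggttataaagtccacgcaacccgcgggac
H2-T23: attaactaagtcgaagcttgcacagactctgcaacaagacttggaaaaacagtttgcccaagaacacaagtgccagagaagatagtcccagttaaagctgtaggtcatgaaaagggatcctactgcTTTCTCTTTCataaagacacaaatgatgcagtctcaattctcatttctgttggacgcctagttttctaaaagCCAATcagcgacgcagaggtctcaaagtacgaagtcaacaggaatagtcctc
Tap1: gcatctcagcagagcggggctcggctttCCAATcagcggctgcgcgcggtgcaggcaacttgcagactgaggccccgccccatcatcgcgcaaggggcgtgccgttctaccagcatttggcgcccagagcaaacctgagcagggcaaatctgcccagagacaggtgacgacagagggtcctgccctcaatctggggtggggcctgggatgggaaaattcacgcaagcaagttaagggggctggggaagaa

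An exact match to the ISRE core was found in B2m, with its first base at -139 from the start site, and on the opposite strand in H2-T23 at -124. It occurs in 3.44% of the 32851 promoters of the same length. H2-K1 and H2-D1 each held the κB motif as an overlapping match on both strands, at -125 and -171, a motif present in 0.323% of promoters. Each of these heavy chain windows also held the X2 box, found in 7.40% of promoters, and CCAAT matches, found in 37.4%. The windows of H2-K1 and H2-D1 aligned over 242 columns with 89.7% identity, against 58.3% with H2-T23 for H2-K1 and 63.5% for H2-D1 over shorter stretches. Tap1 and Psmb9 are transcribed away from each other, with RefSeq start sites 226 bases apart, so their windows share 275 of 300 bases. That shared stretch held a CCAAT match and none of the other motifs. The GENCODE M21 spans of these genes, by contrast, overlap, with Psmb9 reaching to 34187764 and Tap1 beginning at 34187553. Tapbp held CCAAT matches alone and Psmb8 held none of the 4 motifs. These are exact matches of letters, so variant sites are missed, and a window without a match may still hold such an element. The matches were not tested for binding.

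Of the libraries' barcodes, 3504 in WT and 5303 in IRF8KO, the cells kept had at least 1000 UMIs, 500 genes and at most 10% mitochondrial UMIs. UMIs are molecular tags, each standing for a captured transcript. In addition, 98 IRF8KO cells and 0 WT cells with 2% or more of their UMIs in 6 neutrophil genes were left out. Median depth was 3204.5 UMIs per cell in WT and 2933 in IRF8KO, with 1682 and 1379 genes, and 5 barcodes occurred in both libraries. Irf8 itself stood at 794 CPM (a gene's UMIs scaled to a common library total) in WT and 669 CPM in IRF8KO. Which part of the gene is altered is not given in the sources used here, so this count does not check the label. The libraries differed widely in identity markers. The 10 microglia markers made up 3.98% of WT and 2.05% of IRF8KO UMIs, and 9 border macrophage markers summed to 14.1 CPM in WT and 2852 CPM in IRF8KO. In WT, Ms4a7, Cd163, Lyve1, F13a1 and Clec12a were at 0, and in IRF8KO no marker of that list was at 0. Pf4, Ms4a7, Mrc1 and Clec12a made up most of the sum, whereas Lyve1 had 2 UMIs in IRF8KO and Folr2 had 32 UMIs in WT and 4 in IRF8KO.

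The class I members fell into a higher and a lower set by role. The 4 chains that form the surface molecule, B2m, H2-K1, H2-D1 and H2-T23, were all higher in IRF8KO, and the 5 measured genes that make, carry and load peptides, Tap1, Tap2, Tapbp, Psmb8 and Psmb9, were all lower in plain CPM, though under TMM scaling (a trimmed mean of gene ratios) the intervals of Tap1, Tapbp and Psmb9 included 0. "Higher" and "lower" mean here that the 95% interval of the log2 ratio excludes 0. Intervals cover counting error only, since cells are not replicates. The surface chains summed to 1946 CPM in WT and 2629 CPM in IRF8KO (log2 ratio 0.43, 95% interval 0.41 to 0.45). For the peptide supply and loading genes the sum was 525 CPM in WT and 407 CPM in IRF8KO (log2 ratio -0.37, -0.41 to -0.32). The 10 members together held 0.247% of WT UMIs and 0.304% of IRF8KO UMIs.

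**Figure D1:**
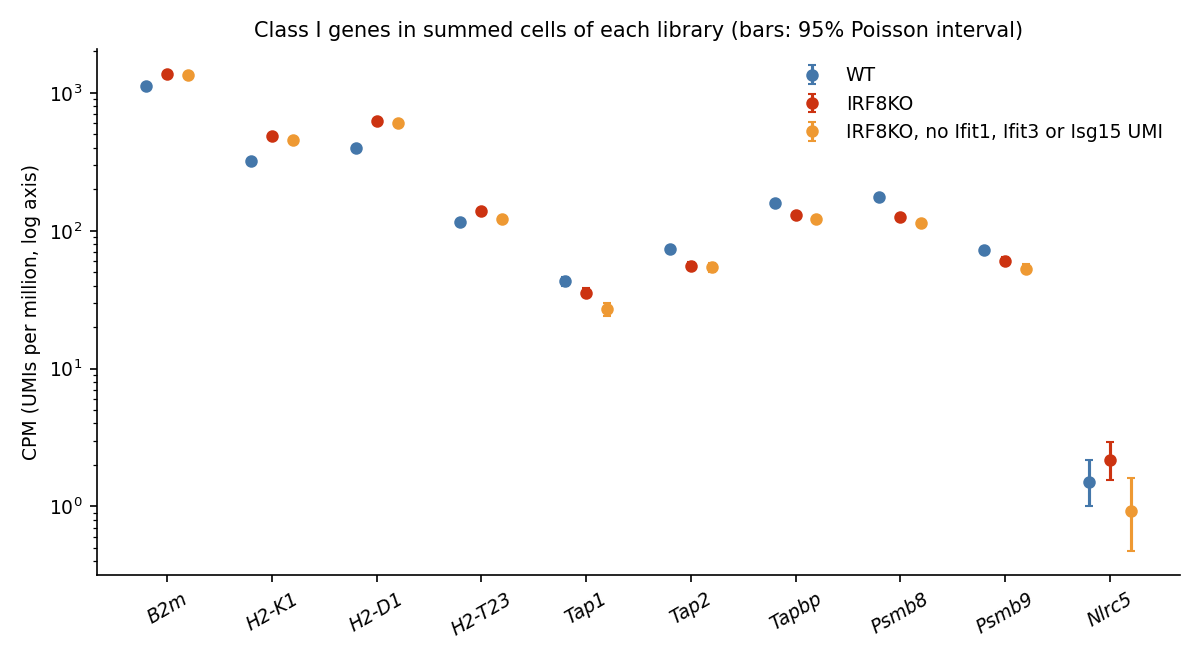
CPM of each class I gene (log axis) in summed cells of the WT library, the library labelled IRF8KO, and IRF8KO cells without a UMI of Ifit1, Ifit3 or Isg15. Points are single libraries or cell groups and bars are exact 95% Poisson intervals, often smaller than the point. B2m, H2-K1, H2-D1 and H2-T23 lie higher in IRF8KO and Tap1, Tap2, Tapbp, Psmb8 and Psmb9 lower in plain CPM, of which Tap1, Tapbp and Psmb9 are not separated from 0 under TMM scaling.

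B2m, the invariant light chain without which most class I molecules do not reach the surface, was at 1116 CPM in WT (20702 UMIs) and 1374 CPM in IRF8KO (26088 UMIs). The log2 ratio was 0.30 (0.27 to 0.33). At a common depth of 2000 UMIs per cell, reached by random thinning, a B2m UMI was found in 87.5% of WT and 91.4% of IRF8KO cells. B2m was therefore seen in nearly every cell of both libraries, and its level was higher in IRF8KO. No cell type in these libraries is known to lack class I transcripts, so the share that free RNA alone would give could not be read.

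The classical heavy chains H2-K1 and H2-D1, which present peptides to CD8 T cells, showed the widest differences among the 9 measured members. H2-K1 was at 318 CPM in WT against 488 CPM in IRF8KO, 1.53-fold, with a log2 ratio of 0.62 (0.57 to 0.66). H2-D1 was at 396 CPM in WT against 627 CPM in IRF8KO, 1.58-fold, with a log2 ratio of 0.66 (0.62 to 0.70). Both genes moved to a like degree: H2-K1 made up 44.5% of the summed UMIs of the pair in WT (43.7 to 45.4) and 43.8% in IRF8KO (43.1 to 44.4). More cells also carried them. In thinned cells the share with an H2-D1 UMI was 47.1% in WT and 63.3% in IRF8KO, and for H2-K1 it was 42.6% and 54.9%. Without thinning the shares were 65.0% and 75.5% for H2-D1, and 61.6% and 68.7% for H2-K1.

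The third heavy chain, H2-T23, encodes the non-classical molecule Qa-1, which displays leader peptides of other class I chains to receptors on natural killer cells. It was at 115 CPM in WT against 139 CPM in IRF8KO, a log2 ratio of 0.27 (0.19 to 0.35). In thinned cells 19.9% of WT and 22.8% of IRF8KO cells held a UMI, while unthinned shares, 36.7% and 35.3%, had the opposite order. Near its 3′ end, 50 of 411 windows of 90 bases also occur in transcripts of Hook2 or Rab33b, against 0 of 411 for the other members. With windows of 50 bases, 108 of 451 were shared for H2-T23, 43 for H2-D1 and 2 for H2-K1, so the counts of these genes, H2-T23 above all, are less certain than those of the rest. How reads with several matches were counted is not given in the sources used here.

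Tap1 and Tap2 encode the subunits of the transporter that brings peptides to the class I molecule. Tap1 was at 43.0 CPM in WT (797 UMIs) and 35.6 CPM in IRF8KO (676 UMIs), a log2 ratio of -0.27 (-0.42 to -0.12). Tap2 was at 73.8 CPM in WT (1369 UMIs) and 55.8 CPM in IRF8KO (1059 UMIs), a log2 ratio of -0.40 (-0.52 to -0.29). Tapasin, Tapbp, which bridges the transporter to the empty class I molecule, was at 159.7 CPM and 129 CPM, a log2 ratio of -0.31 (-0.39 to -0.23). The intervals of the 3 ratios overlapped. In thinned cells a UMI was found in 7.78% of WT and 6.72% of IRF8KO cells for Tap1, in 13.4% and 9.96% for Tap2, and in 26.6% and 21.9% for Tapbp.

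Psmb8 and Psmb9 are immunosubunits that take the place of the constitutive Psmb5 and Psmb6 in the proteasome core. Psmb8 was at 176 CPM in WT against 126 CPM in IRF8KO, a log2 ratio of -0.48 (-0.56 to -0.41), the lowest among the 9 measured members. Psmb9 was at 72.4 CPM and 60.9 CPM, a log2 ratio of -0.25 (-0.36 to -0.14). Their constitutive partners had ratios closer to 0 in each pair: Psmb5 had a log2 ratio of -0.32 (-0.41 to -0.22) and Psmb6 of -0.02 (-0.11 to 0.07). Psmb8 made up 62.2% of the summed UMIs of Psmb8 and Psmb5 in WT (60.8 to 63.5) and 59.4% in IRF8KO (57.9 to 60.9). Psmb9 made up 39.1% of its sum with Psmb6 in WT (37.5 to 40.8) and 35.4% in IRF8KO (33.7 to 37.0). The third pair, Psmb10 and Psmb7, stood at 62.4% and 61.8%. The intervals of the libraries were apart for Psmb9 with Psmb6 and overlapped for the other pairs.

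Nlrc5, the transactivator that binds class I promoters with the RFX complex, was barely captured. It had 28 UMIs in WT (1.51 CPM) and 41 in IRF8KO (2.16 CPM), and the interval of its log2 ratio of 0.52 ran from -0.21 to 1.26. Under TMM scaling the ratio was 0.77 (0.04 to 1.52), so at this depth the scaling decides whether the interval includes 0. Nlrc5 is left out of the counts of members below because it did not reach 10 CPM in a library.

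Against all genes the split by role reads differently, because the median log2 ratio of all 8859 measured genes (10 CPM or more in either library) was -0.28. Of the 9 members at that level, 2 (H2-K1 and H2-D1) were at least 1.5-fold higher, beside 8.67% of all genes, and 0 were at least 1.5-fold lower, beside 22.7%. None reached 2-fold, beside 5.61% of all genes higher and 9.28% lower. Their median log2 ratio was -0.25, close to that of all genes, with 4 members above 0 and 5 below, while 25.1% of all genes lay above 0. The heavy chains and B2m stood well above the bulk of genes: H2-D1 ranked at the 92.1 percentile, H2-K1 at 91.7, B2m at 87.0 and H2-T23 at 86.3. The loading and proteasome members lay in the middle or lower part, from Psmb9 at 53.0 and Tap1 at 50.8 through Tapbp at 47.0 and Tap2 at 37.1 to Psmb8 at 29.9. With TMM the all-gene median became -0.02, a shift of 0.26. Under it the loading and proteasome members ranged from -0.23 for Psmb8 to 0.00 for Psmb9, and the intervals of Tap1, Tapbp and Psmb9 then included 0, while Tap2 and Psmb8 stayed lower and the surface chains higher.

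Interferon response genes were far higher in IRF8KO, so the members were also read in cells without UMIs of 3 of these genes. Of 13 measured genes of a 15-gene interferon response list, 12 were at least 1.5-fold higher, beside 8.67% of all genes, and 1, Gbp3, was lower, with a list median of 2.48 on the log2 scale. The antiviral gene Rsad2 had a log2 ratio of 5.46, the response gene Oasl2 had 3.85, and Ifit1 was at 3.88 CPM in WT against 62.0 CPM in IRF8KO. The split used 3 of them, Ifit1, Ifit3 and Isg15: 77.3% of IRF8KO cells (3872) and 93.3% of WT cells (3082) held no UMI of the 3. Free RNA can give such UMIs and shallow cells can miss them, so the split is a depth-dependent range and not a cell type. It removes only part of the signal. In the IRF8KO cells without the 3 genes, Ifi204 still had a log2 ratio to WT of 3.08 and Rsad2 of 2.75. Oasl2 had 2.38, Gbp2 1.56 and Bst2 1.01. The other measured genes of the list were lower: Xaf1 had 0.66, Usp18 0.46, Irgm1 0.31, Ifit2 -0.56 and Gbp3 -2.02. Irf7, which is not on the 15-gene list, had 2.07 in these cells. Median depth was 2847 UMIs in these cells and 3403 in those with the 3 genes. In the 1152 IRF8KO cells without a UMI of any of the 15 genes, which were shallower (median 2575 UMIs), the surface chains summed had a ratio to WT of 0.29 (0.26 to 0.33) and the 5 loading and proteasome genes -0.57 (-0.66 to -0.48).

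In the IRF8KO cells without Ifit1, Ifit3 and Isg15 UMIs B2m, H2-K1 and H2-D1 were higher than in WT, and the loading and proteasome genes summed to 369 CPM against 407 CPM in all IRF8KO cells. H2-D1 was at 603 CPM, a log2 ratio to WT of 0.61 (0.56 to 0.65), and H2-K1 at 455 CPM, a ratio of 0.52 (0.46 to 0.57). B2m was at 1339.6 CPM, a ratio of 0.26 (0.23 to 0.29). H2-T23, at 122 CPM, had a ratio to all WT cells of 0.09, whose interval, -0.01 to 0.18, includes 0. Against WT cells likewise without Ifit1, Ifit3 and Isg15 UMIs, the H2-T23 ratio was 0.15 (0.05 to 0.25), which excludes 0. Whether H2-T23 was higher in these IRF8KO cells therefore depended on which WT cells were used.

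Among the 9 measured members Tap1 moved most between all IRF8KO cells and these. It was at 26.9 CPM in IRF8KO cells without the 3 genes, a log2 ratio to WT of -0.68 (-0.86 to -0.49). Psmb8, at 113 CPM, had a ratio of -0.64 (-0.73 to -0.55), and Psmb9 and Tap2, at 53.2 and 54.4 CPM, each had -0.44. Tapbp had -0.40 and Nlrc5, with 12 UMIs, -0.71 (-1.82 to 0.31). In these cells 1 member (H2-D1) was at least 1.5-fold higher, beside 8.22% of 8839 genes, and 2 (Tap1 and Psmb8) were at least 1.5-fold lower, beside 23.9%. None reached 2-fold, beside 5.27% of genes higher and 9.67% lower. Under TMM scaling the 4 members above 0 and 5 below were unchanged in number, and the count past 1.5-fold became 2 higher and 0 lower, the same as with totals that leave out mitochondrial and ribosomal protein genes. Summed, the surface chains had a ratio of 0.37 (0.35 to 0.39) and the 5 loading and proteasome genes -0.51 (-0.56 to -0.46). Leaving the marked cells out of both libraries gave 0.65 for H2-D1, 0.57 for H2-K1 and -0.62 for Tap1.

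Within IRF8KO, members differed in how far they followed the interferon signal, which was read in cells thinned to 2000 UMIs and grouped by their summed UMIs of Ifit1, Ifit3 and Isg15. The groups held 3769 cells with 0 UMIs, 393 with 1, 195 with 2 to 3 and 152 with 4 or more. Tap1 went from 29.2 to 50.9, 56.4 and 157.9 CPM over these groups, 5.41-fold from the first to the last (log2 2.44, 1.95 to 2.89). H2-T23 went from 125 to 153, 205 and 352 CPM, 2.81-fold. Psmb9 was at 56.0 and 181 CPM in the first and last group (log2 1.69) and Psmb8 at 117.5 and 296 CPM (log2 1.33). For each of these 4 genes the last group lay above the first with no overlap of intervals, as it did for B2m, H2-K1, H2-D1 and Tapbp.

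The remaining members differed less between the first and last group, Nlrc5 aside. H2-K1 went from 456 CPM in cells with 0 UMIs to 809 CPM in cells with 4 or more (log2 0.83), B2m from 1372 to 1914 CPM (0.48), H2-D1 from 604 to 819 CPM (0.44) and Tapbp from 119.5 to 197 CPM (0.72). Tap2 was at 52.7, 56.0, 61.5 and 46.1 CPM, with a ratio of last to first of -0.19 (-1.08 to 0.57). The transporter subunits therefore differed: the interval of Tap1 lies wholly above that of Tap2. Nlrc5 had 5, 1, 0 and 6 UMIs in the 4 groups, and the last 6 came from 152 cells (19.7 CPM, 7.24 to 43.0). Summed over all members the level went from 2933 to 4793 CPM, 1.63-fold. WT had 2921 cells with 0 UMIs and 80 with 1, and the higher groups held 12 and 6 cells, too few to read.

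**Figure D2:**
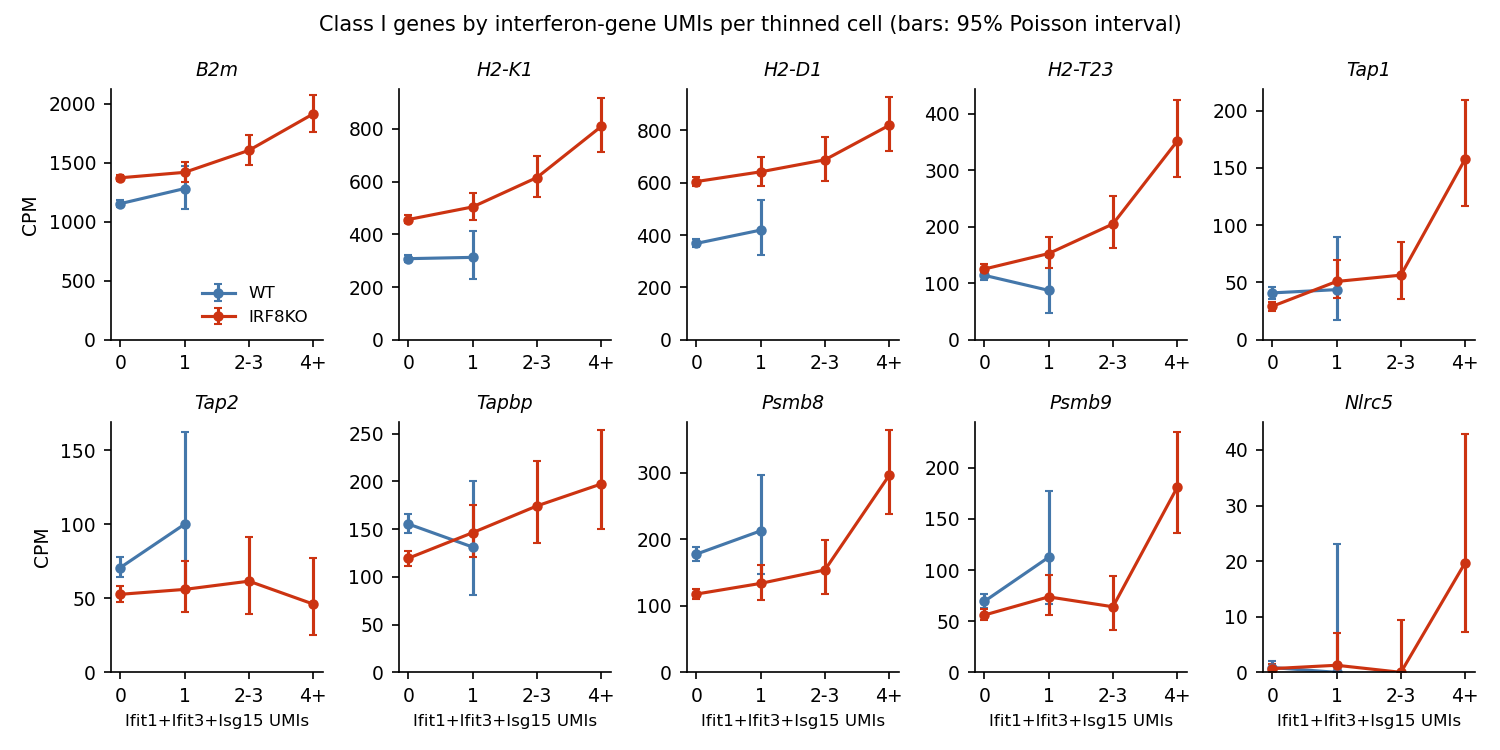
CPM of each class I gene (y axis) by summed UMIs of Ifit1, Ifit3 and Isg15 per cell thinned to 2000 UMIs (x axis), in WT (blue) and IRF8KO (red), with exact 95% Poisson intervals. WT is drawn for 0 and 1 UMI only, since its higher groups hold 12 and 6 cells. Tap1 climbs from 29.2 to 157.9 CPM in IRF8KO while Tap2 stays between 46.1 and 61.5 CPM.

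Among the cells with 0 UMIs of the 3 genes after thinning, the order by role was present at equal depth. IRF8KO over WT gave a log2 ratio of 0.72 for H2-D1 (0.64 to 0.79), 0.57 for H2-K1 and 0.25 for B2m. It gave -0.59 for Psmb8, -0.49 for Tap1, -0.42 for Tap2, -0.38 for Tapbp and -0.31 for Psmb9. H2-T23, at 0.13 (-0.01 to 0.28), was not separated from 0 at this depth.

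Cell by cell, class I UMIs were spread over most cells rather than held by a few. In cells thinned to 2000 UMIs (3019 WT and 4509 IRF8KO, after leaving out 285 and 498 shallower cells) the median sum over the 10 members was 5 UMIs in both libraries, with quartiles of 3 and 6 in WT and 4 and 8 in IRF8KO. The mean was 4.94 UMIs in WT and 6.09 in IRF8KO. Cells above 10 UMIs, the 95th percentile of WT, were 3.41% of WT and 10.05% of IRF8KO cells (9.18 to 11.0), and 8.50% of IRF8KO cells without the 3 interferon genes. No class I UMI was found in 1.89% of WT and 0.599% of IRF8KO cells.

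**Figure D3:**
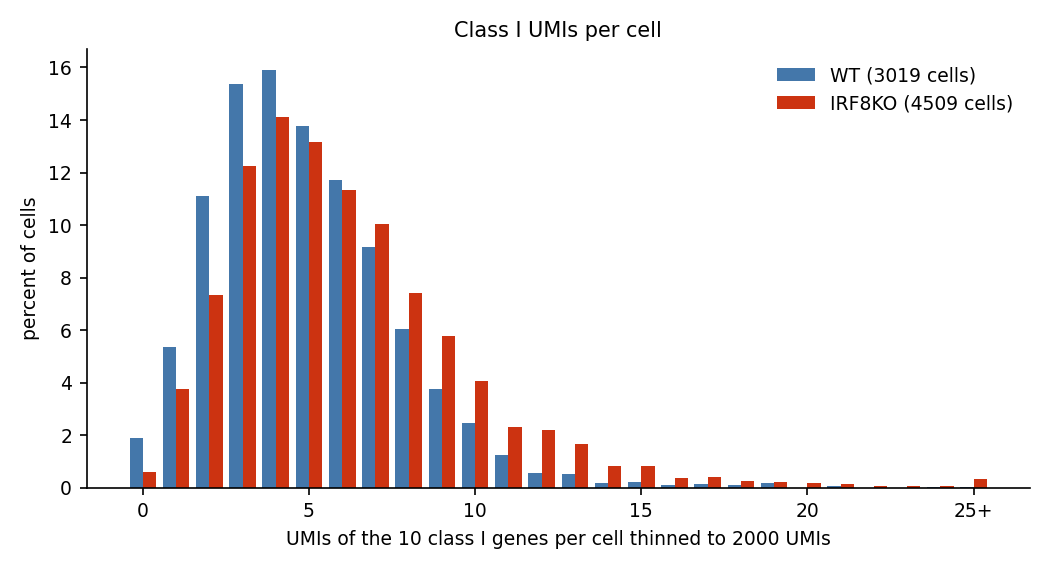
Share of cells (y axis, percent) by summed UMIs of the 10 class I genes in cells thinned to 2000 UMIs (x axis), in 3019 WT and 4509 IRF8KO cells. Both libraries have a median of 5 UMIs, and the IRF8KO bars reach further right: 10.05% of its cells lie above 10 UMIs against 3.41% in WT.

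At the level of cells too, heavy chains were found in more IRF8KO cells and the loading genes in fewer. No UMI of the 3 heavy chains was found in 26.4% of thinned WT cells and 15.1% of IRF8KO cells. No UMI of the 5 loading and proteasome genes was found in 36.1% of WT and 46.8% of IRF8KO cells. In thinned cells the median log2 ratio of all genes was -0.27. The 5 genes lay on both sides of it, from -0.50 for Psmb8 to -0.17 for Tap1. The variance of UMIs over their mean was larger in IRF8KO for H2-D1 (1.66 against 1.43 in WT) and B2m (1.42 against 1.25), at higher means in IRF8KO.

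IRF8KO cells were further divided by genes that vary within that library. The 825 cells with more UMIs of Lgals1, Cst7 and Cd72 than of Clec12a, Mrc1 and Igf1 held 3270.1 CPM of class I members, against 2953 CPM in the 3257 cells with the reverse. The log2 ratio of the latter to the former was -0.30 for H2-D1 (-0.37 to -0.23), -0.30 for Psmb8, -0.18 for H2-K1 and -0.11 for B2m. It was 0.26 for Tap2, and the intervals of H2-T23, Tap1, Tapbp, Psmb9 and Nlrc5 included 0. The 925 cells with equal UMIs of both sets held 3188 CPM. Ifit1, Ifit3 and Isg15 moved with this division, at 315 CPM in the former and 188 CPM in the latter cells, as did depth, with medians of 3250 and 2911 UMIs, and their part in the differences was not tested.

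A small set of cells with MHC class II transcripts, which mark antigen-presenting cells, stood out for some of the members. Only 29 IRF8KO cells had at least 5 UMIs of H2-Aa, H2-Ab1 and H2-Eb1 together, with a median depth of 8241 UMIs. Over the other IRF8KO cells their log2 ratio was 0.86 for H2-D1, 0.71 for H2-K1 (0.54 to 0.88) and 1.08 for Tap1 (0.48 to 1.63), while B2m stood at 0.05 (-0.08 to 0.17). Psmb8 had 0.65 (0.29 to 0.98), and Nlrc5, with 4 UMIs in the 29 cells, had 2.41 (0.46 to 3.88). The intervals of H2-T23 (0.34, -0.04 to 0.69), Tap2, Tapbp and Psmb9 included 0. In WT, 5 cells met the rule. Ifit1, Ifit3 and Isg15 summed to 343 CPM in the 29 cells and 222 CPM in the other IRF8KO cells, whose median depth was 2929 UMIs. The part of depth and of the interferon signal in these ratios was not tested.

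The neutrophil-marked cells left out of IRF8KO had a profile of their own, given as values of 98 cells. Psmb9 was at 111.5 CPM in them, above both libraries, and H2-D1 was at 537 CPM, between the libraries. B2m was at 762 CPM, below both, H2-K1 at 321 CPM and H2-T23 at 62.9 CPM. In the cells used, the 6 neutrophil genes summed to 1.40 CPM in WT and 48.7 CPM in IRF8KO, against 389606 CPM in the cells left out. That share lowers the CPM of every other gene in the cells left out. The placements below or between the libraries therefore depend on it, and levels over the remaining UMIs were not computed.

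Other genes of the pathway, from lists chosen by function, placed the rest of the loading machinery on the same side as Tap1, Tap2 and Tapbp in plain CPM. All 9 listed loading and trimming genes had a ratio below 0 and 4 were at least 1.5-fold lower, with a median of -0.50, beside 22.7% of all genes lower by that fold and 25.1% above 0. Under TMM scaling 8 were below 0, Lnpep above it, and the median was -0.25 with none past 1.5-fold. Pdia3 (ERp57), the oxidoreductase bound to tapasin in the loading complex, was at 761 CPM in WT against 462 CPM in IRF8KO, a log2 ratio of -0.72. Erap1, the aminopeptidase that trims peptides in the endoplasmic reticulum, had -0.65, and the tapasin-like editor Tapbpl had -0.62. The chaperones Canx and Calr had -0.50 and -0.46. In IRF8KO cells without the 3 interferon genes Pdia3 was at 464 CPM.

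The proteasome as a whole lay closer to 0 than the loading genes. Of 14 constitutive core subunits 13 were below 0, beside 25.1% of all genes above 0. The median of the subunits was -0.17, beside -0.28 for all genes. None reached 1.5-fold in either direction, beside 8.67% of all genes higher and 22.7% lower. With TMM scaling 10 subunits were above 0 and their median was 0.08. The lowest were Psma7 at -0.41, Psma4 at -0.32 and Psmb5 at -0.32, and Psmb1 was above 0 at 0.17. Among 4 further genes, the assembly factor Pomp had -0.51, the activator subunit Psme2 -0.44 and the third immunosubunit Psmb10 -0.33. The activator subunit Psme1 had 0.01, and TMM scaling left the same 3 against 1 split. In plain CPM this split stands beside 25.1% of all genes above 0.

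Other heavy chains were scarce. Of 17 listed genes 13 were among the features and 4 reached 10 CPM. H2-Q4 was at 7.44 CPM in WT (138 UMIs) and 16.3 CPM in IRF8KO (309 UMIs), a log2 ratio of 1.13 (0.84 to 1.43), but 21 of 411 windows of 90 bases and 96 of 451 of 50 bases at its 3′ end occur in H2-Q6, so its counts are uncertain. H2-T22 had 0.27, H2-M3 -0.05 and H2-T24 -0.23, and all 4 were above 0 under TMM scaling. Of 6 class I-like molecules that bind other ligands, the 4 measured had ratios below 0, beside 25.1% of all genes above 0. The interval of Mr1 (-0.11) included 0, and Mr1 and Hfe were above 0 under TMM scaling. Cd1d1, which presents lipids to natural killer T cells, had 343 UMIs in WT and 59 in IRF8KO, a log2 ratio of -2.57. The neonatal Fc receptor Fcgrt had -0.54 and the iron regulator Hfe -0.21.

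Of 17 measured factors that act at class I promoters, 6 lay above 0 and 11 below, beside 25.1% of all genes above 0. At least 1.5-fold higher was 1 factor and lower was 1, beside 8.67% and 22.7% of all genes. Under TMM scaling 10 were above 0. Irf7, an interferon-induced activator, had 78 UMIs in WT and 713 in IRF8KO, a log2 ratio of 3.16. Nfya, a subunit of the CCAAT-binding factor NF-Y, was at 89.8 CPM and 42.9 CPM, a log2 ratio of -1.07 (-1.19 to -0.94). Irf8 had -0.25 (-0.28 to -0.21), which became 0.0064 under TMM scaling, and Irf1 had -0.05 (-0.20 to 0.09).

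**Figure D4:**
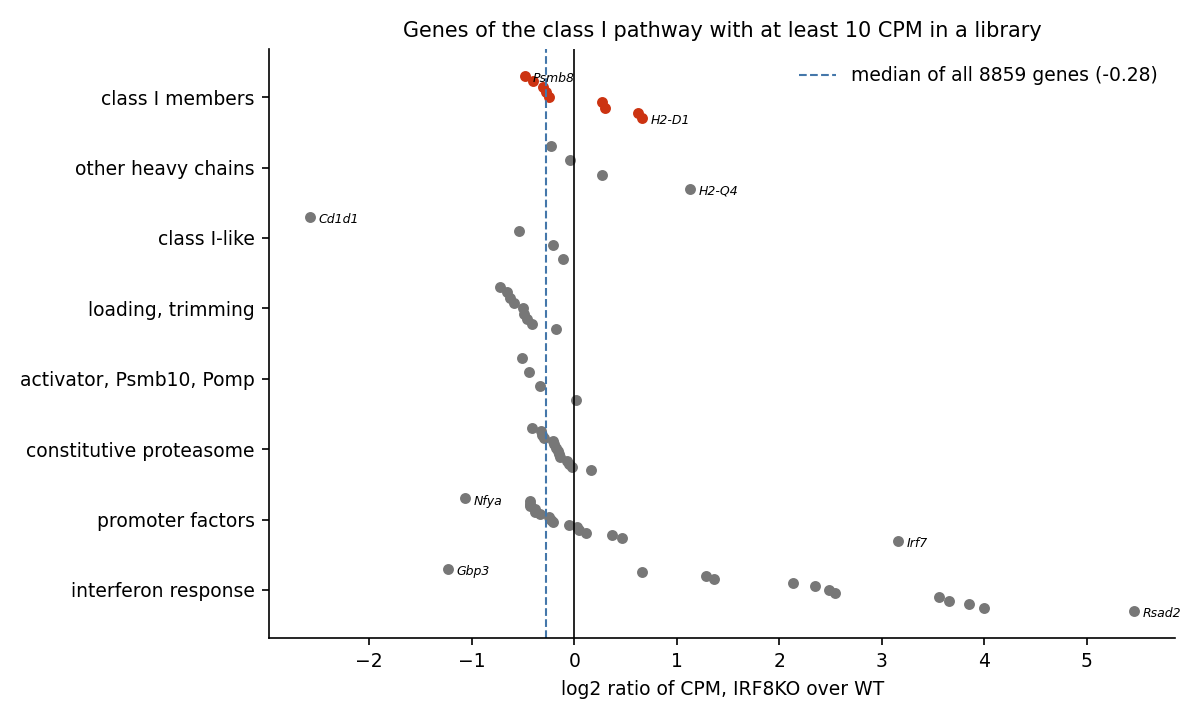
Log2 ratio of CPM, IRF8KO over WT (x axis), of each measured gene (10 CPM or more in either library), by list (y axis), where a point is a gene. The dashed line marks the median of all 8859 genes at -0.28. The class I members split into a group above 0 led by H2-D1 and a group near the dashed line, while all loading and trimming genes lie below 0, as 8 of 9 do under TMM scaling.

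Because border macrophage markers differed so widely, the members were also read without the cells that carry them. IRF8KO cells without a UMI of any of the 9 markers numbered 178 and were shallow, with a median of 2401 UMIs. In them the surface chains summed had a log2 ratio to WT of 0.44 (0.35 to 0.52) and the 5 loading and proteasome genes -0.45 (-0.68 to -0.23), as large as in all IRF8KO cells. Single genes moved at this depth: H2-T23 was at -0.03, Psmb9 at 0.17 and Tap1, with 7 UMIs, at -1.44. T and NK cell markers, 8 genes, had 0 UMIs in WT, where 3 UMIs would be 0.162 CPM, and 2 UMIs, both of Klrb1c, in IRF8KO. Dendritic cell markers summed to 4.31 CPM in WT and 10.7 CPM in IRF8KO. Zbtb46 went from 2.53 to 8.96 CPM, Flt3 had 1.08 and 0.896 CPM, Xcr1 0.647 and 0.316 CPM, and Ccr7 was at 0 in both. Of the B cell markers, Cd79b had 909 UMIs in WT and 80 in IRF8KO (log2 ratio -3.54), and Pax5 was at 0 in both.

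The genes whose UMIs followed the members' sum most closely across thinned cells were not the same in the libraries, and all correlations were weak. In WT, with 3019 cells and 3789 genes ranked, they were Ctss (Pearson r 0.19), C1qb (0.15), Itm2b (0.10), Psap (0.10) and Ctsh (0.10). In IRF8KO, with 4509 cells and 3190 genes, they were Ly6e (0.21), Ccl5 (0.21), Ctss (0.20), C1qa (0.19) and C1qb (0.18). Ly6e and Ccl5 are known interferon or inflammatory response genes, and Ctss is the lysosomal protease cathepsin S. Among member pairs the closest were the same 3 in both libraries: H2-K1 with H2-D1 (0.16 in WT and 0.24 in IRF8KO), B2m with H2-D1 (0.15 and 0.19) and B2m with H2-K1 (0.11 and 0.16). Cells of a library share its depth and free RNA, so these values are descriptions.

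**Figure D5:**
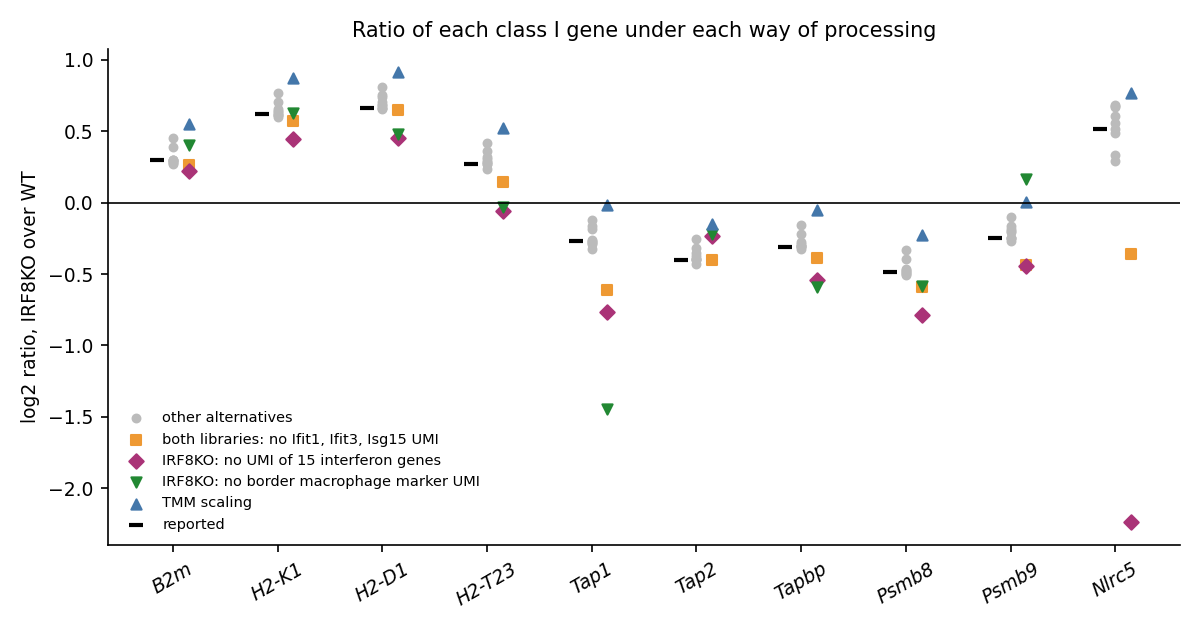
Log2 ratio of each class I gene, IRF8KO over WT (y axis), as reported (black bar) and under each other way of processing, with 4 of them marked by shape and color. As point values, B2m, H2-K1 and H2-D1 stay above 0 and Tap1, Tap2, Tapbp and Psmb8 below 0 throughout, while H2-T23, Psmb9 and Nlrc5 cross 0. Intervals are not drawn, and those of Tap1 and Tapbp include 0 under TMM scaling. Nlrc5 has no point without border macrophage markers because it had no UMI there.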

How the data were processed

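The authors deposited a matrix of raw UMI counts (genes by barcodes) for each of the 2 libraries. The software version is 3.1.0 and the format 2, per the file headers, and the submitters' processing notes name bcl2fastq, Cell Ranger 3.1, Scanpy and mm10; how reads with several matches were counted is not given in the sources used here. Cells were kept with at least 1000 UMIs, 500 genes and at most 10% mitochondrial UMIs, and with under 2% of UMIs in Camp, Ngp, S100a8, S100a9, Lcn2 and Ltf. This left 3304 WT and 5007 IRF8KO cells with 18543061 and 18980263 UMIs. No doublet caller was run, and an alternative left out the cells with most UMIs.

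UMIs were summed per library and scaled to CPM. The 95% intervals of CPM are Poisson (exact), those of ratios conditional binomial and those of shares Clopper-Pearson; they cover counting error only. With 1 library per group no model or p-value across genes was computed. A gene counted as measured with at least 10 CPM in a library, and a fixed 1.5-fold stood in for a call. For comparisons at equal depth, cells were thinned to 2000 UMIs (seed 1) and shallower cells left out. All 10 members are named, in each other pathway list the 3 genes with the largest absolute log2 ratio, always Psmb5, Psmb6, Psmb7 and Irf8, and the 5 genes and 3 member pairs most alike over thinned cells; further named genes are list members chosen after their values were seen. Of the genes this rule names, 1 is not reported here. The members and lists were chosen with earlier results of these data known. Positions come from GENCODE M21, to which 30934 of 31053 features matched. Python 3.11.15, numpy 2.4.6, scipy 1.17.1, pandas 2.3.3 and edgeR 4.0.16 (TMM factors only) were used, and the ratio calculation was tested on simulated data.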

Additional observations from a re-analysis of the deposited data

How the results depend on the processing

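As point values, B2m, H2-K1 and H2-D1 stayed above 0 and Tap1, Tap2, Tapbp and Psmb8 below 0 under each of the 13 alternatives run for all IRF8KO cells. With TMM scaling, however, the intervals of Tap1 (-0.17 to 0.13) and Tapbp (-0.13 to 0.02) included 0. H2-T23 changed sign without cells carrying any UMI of the 15-gene interferon list (-0.06) and without border macrophage markers (-0.03). Psmb9 did so under TMM scaling (0.00) and without border markers (0.17), and Nlrc5 without marked cells in both libraries (-0.36) and without the whole interferon list (-2.24). The alternative without border markers was chosen after seeing the data. The members' median, -0.25 as reported, was 0.0035 under TMM scaling, -0.10 with totals lacking mitochondrial and ribosomal protein genes, -0.39 without marked cells in both libraries and -0.027 without border markers. The 2 members at least 1.5-fold higher became 1 without marked cells in both libraries, 0 without the whole interferon list, 1 without border markers and 0 at a 2-fold threshold. The 0 members at least 1.5-fold lower became 2, 2 and 2 under the first 3 of these. In IRF8KO cells without Ifit1, Ifit3 and Isg15 UMIs, the median of -0.40 was -0.17 under TMM scaling, -0.25 without mitochondrial and ribosomal protein genes and -0.31 without the 10 most abundant genes. The scalings move all genes by their construction, and for the other changes the cause was not tested. A neutrophil threshold of 0.5% kept the same number of cells, 5007. No paired analysis was possible because each group is 1 library, and for the same reason no replicate could be left out. Depth limits Nlrc5, with 28 and 41 UMIs.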
